A study of Mus musculus with 28 samples.

Results

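Of the 20665 autosomal protein-coding genes in the RefSeq table, 92 carry a symbol that starts with Kcn and encode potassium channel subunits or their regulators. They were taken by symbol alone, with no measured value. They were examined for H3.3, a histone H3 variant that is loaded onto chromatin throughout the cell cycle, and for H3K27ac, acetylation of lysine 27 of histone H3 found at active promoters and enhancers. Chromatin was mapped by CUT&RUN, in which an antibody tethers a nuclease to its target in nuclei, in the male mouse embryonic stem cell line E14. The 28 libraries came from 5 genotypes, namely wildtype (2 libraries for each target), H3f3a_AA_H3f3b_WTA (2 clones), and H3f3a_AA_H3f3b_WTWT, H3f3a_WTWT_H3f3b_AA and H3f3a_WTA_H3f3b_AA with 1 library per target each. H3f3a and H3f3b are the genes for H3.3, WT and A name the alleles, and the title gives the change as K122A. Each genotype was assayed for H3K27ac, H3K122ac, H3.3 and without antibody, so each target had 7 libraries. The labels' protocols describe a LIF medium and one with 2 inhibitors added (LIF+2i), without saying which these cells grew in.

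The values are the positions of consensus regions, 5377 autosomal ones for H3.3 and 57327 for H3K27ac (build mm10), without a height or a value per library. They cannot show whether a region is present in wildtype cells, in mutant cells or in both. Read depth is unknown, no count below has replicates, and nothing here was tested: counts of these genes stand beside the same count over all autosomal protein-coding genes. Intervals are exact (Clopper-Pearson) at 95%, cover counting over genes or regions only, and treat genes as independent, although neighbours can share a region. An end of a gene was taken as 1 kb on both sides of its first or last annotated base, and a mark counted there if a region touched this window by 1 bp. The gene body is the rest of the gene, and a region counts as inside it if it touches no end. Regions were not placed in exons, introns or UTRs. Among markers of embryonic stem cells, 10 of 10 genes (such as Pou5f1, Nanog and Sox2) had H3K27ac at an end. It was found at 1 of 7 neuronal markers (Stmn2), 0 of 6 heart muscle markers, 0 of 4 endoderm markers and 1 of 4 fibroblast markers (Thy1). The share of all genes was 40.6%. H3.3 without H3K27ac was at ends of 3 endoderm, 3 neuronal and 1 heart muscle marker, and of 0 stem cell and 0 fibroblast markers, beside 5.55% of all genes.

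Potassium channels let potassium ions leave or enter a cell along their gradient and thereby set the resting potential and end action potentials. Voltage-gated channels open on depolarisation, inward rectifiers pass current best near rest, Kcnk channels leak at all voltages, and another group opens with intracellular calcium or sodium. Many of these genes are active in nerve, muscle or secretory cells, and the repressor REST is known to hold neuronal channel genes silent in other cells.

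Most potassium channel genes had neither mark at their ends, and the marks that were present rarely met. H3K27ac lay at an end of 12 of the 92 genes (13.0%, 6.93 to 21.7%), against 40.6% of all autosomal protein-coding genes. H3.3 lay at an end of 14 (15.2%, 8.58 to 24.2%), a share near the 16.8% of all genes. Neither mark was found at the ends of 68 (73.9%, 63.7 to 82.5%), against 53.9% of all genes. Of the 14 genes with H3.3, 12 had no H3K27ac at an end (13.0% of the 92, 6.93 to 21.7%), where 5.55% of all genes had this state. Kcnh3 and Kcnq3 had both (2.17%, 0.264 to 7.63%, against 11.2%), and 10 had H3K27ac without H3.3 (10.9%, 5.34 to 19.1%, against 29.3%). With bodies included, 50 genes (54.3%, 43.6 to 64.8%) had no region of either mark, against 42.3%.

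**Figure D1:**
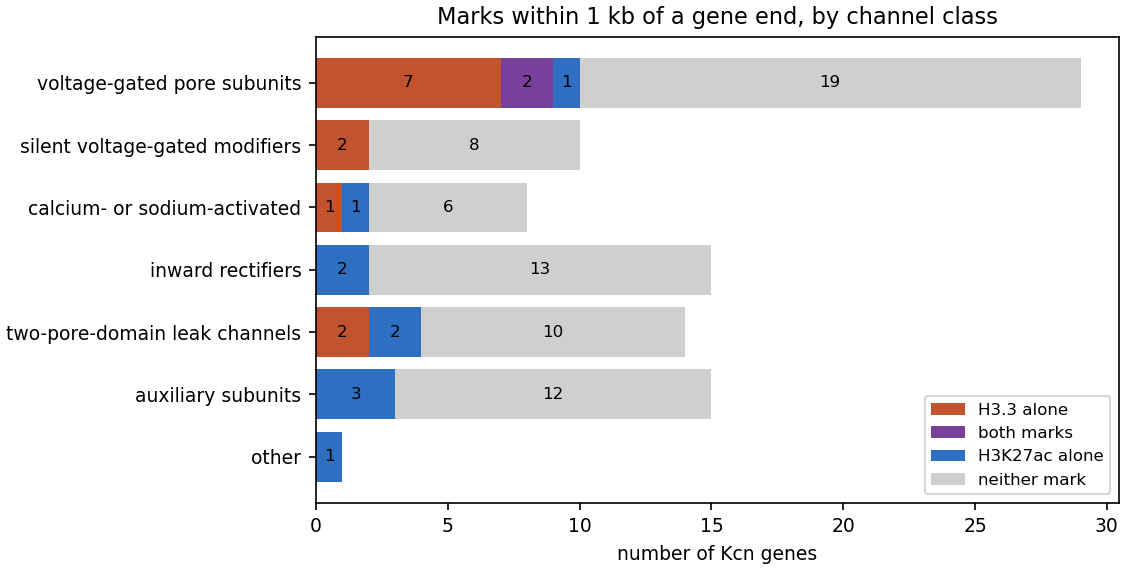
Number of Kcn genes (horizontal axis) in each channel class with H3.3 alone, both marks, H3K27ac alone or neither mark within 1 kb of a gene end. Voltage-gated pore subunits (29 genes) hold 9 of the 14 genes with H3.3, and inward rectifiers and auxiliary subunits (15 genes each) hold none.

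Start sites of 5 genes illustrate these states and do not span the range of base composition. Each sequence is the 250 bases before the outermost listed start, 5′ to 3′ on the gene's strand, from RefSeq (GRCm38.p6), with CpG dinucleotides in capitals. Kcnk12 (chr17:87797995-87798244, minus strand) encodes a leak channel subunit and had more H3.3 width at its end than any other listed gene with H3.3 alone there. Kcnip2 (chr19:45816064-45816313, minus strand), a calcium-binding partner of Kcnd channels, had the widest H3K27ac region at an end without H3.3 there. Kcnk5 (chr14:20181783-20182032, minus strand), a leak channel sensitive to pH, held the most H3K27ac. Kcna10 (chr3:107182893-107183142, plus strand) and Kcnd2 (chr6:21215096-21215345, plus strand) are voltage-gated genes without any region, taken as the first by name and the longest. These stretches held 16, 15, 19, 0 and 22 CpG dinucleotides in that order, so the unmarked Kcnd2 start is the richest of the 5 and the unmarked Kcna10 start has none.
Kcnk12: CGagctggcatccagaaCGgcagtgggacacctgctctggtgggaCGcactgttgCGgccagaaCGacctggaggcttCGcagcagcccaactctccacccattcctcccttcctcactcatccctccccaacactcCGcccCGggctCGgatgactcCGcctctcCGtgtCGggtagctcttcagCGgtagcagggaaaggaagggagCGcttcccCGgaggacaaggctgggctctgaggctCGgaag
Kcnip2: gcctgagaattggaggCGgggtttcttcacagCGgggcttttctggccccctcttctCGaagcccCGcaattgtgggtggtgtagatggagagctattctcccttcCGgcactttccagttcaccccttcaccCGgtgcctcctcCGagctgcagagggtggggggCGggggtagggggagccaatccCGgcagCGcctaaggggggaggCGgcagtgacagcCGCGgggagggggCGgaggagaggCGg
Kcnk5: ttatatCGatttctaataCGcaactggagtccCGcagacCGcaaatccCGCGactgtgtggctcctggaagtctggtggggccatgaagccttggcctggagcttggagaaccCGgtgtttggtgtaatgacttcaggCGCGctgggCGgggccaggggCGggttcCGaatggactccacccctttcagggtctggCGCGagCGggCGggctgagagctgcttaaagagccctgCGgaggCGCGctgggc
Kcna10: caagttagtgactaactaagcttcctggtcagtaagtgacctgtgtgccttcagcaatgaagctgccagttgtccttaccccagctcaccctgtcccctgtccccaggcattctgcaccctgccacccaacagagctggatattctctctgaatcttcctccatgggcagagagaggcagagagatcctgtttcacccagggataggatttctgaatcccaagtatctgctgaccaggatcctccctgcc
Kcnd2: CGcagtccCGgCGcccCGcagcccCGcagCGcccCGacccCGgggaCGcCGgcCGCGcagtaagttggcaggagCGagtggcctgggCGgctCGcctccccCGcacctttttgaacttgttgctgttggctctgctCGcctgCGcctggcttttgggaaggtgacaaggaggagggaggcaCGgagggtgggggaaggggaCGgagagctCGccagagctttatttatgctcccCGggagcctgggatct

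Of the 14 genes with H3.3 at an end, 9 were voltage-gated pore subunits, the Kcna, Kcnb, Kcnc, Kcnd, Kcnh and Kcnq genes. This class has 29 genes, so the share was 31.0%, beside 16.8% of all genes. No interval was computed for this class, and whether the classes differ was not tested. The widest region was at Kcnh3, an ether-a-go-go family gene of forebrain neurons, with 2016 bp on chromosome 15 from 99223663 to 99225678; 6.02% of all H3.3 regions were wider. Kcnc2, a channel of fast-spiking neurons, had 1128 bp on chromosome 10 from 112270418 to 112271545. Its relative Kcnc4 had 610 bp. Both of these regions covered a listed transcription start. Kcnd3, which carries transient outward current in heart and brain, had regions of 267 and 527 bp at its 5′ end, the wider one over the listed start. Kcnh2, the cardiac repolarisation channel gene, had 349 bp, and Kcnq3, a gene of the neuronal M-current, had 262 bp. Kcna1, a Shaker-type channel of axons, had 225 bp at an end and 717 bp within its body. Kcnh8 had 196 bp, narrower than 99.5% of the H3.3 list.

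The other classes contributed 5 genes with H3.3 at an end. Silent modifiers, which form no channel alone but change the gating of Kcnb partners, contributed 2 of 10, Kcng3 with 871 bp and Kcns2 with 208 bp. Leak channels contributed 2 of 14. Kcnk12 had 1395 bp across its start, on chromosome 17 from 87797584 to 87798978, and Kcnk9, an acid-sensitive channel gene, had regions of 905 and 351 bp. The class called calcium- or sodium-activated has 8 genes and was set by symbol alone (Kcnma1 and the Kcnn, Kcnt and Kcnu genes). Of these, Kcnn1, a small-conductance calcium-activated channel, had 367 bp. None of the 15 inward rectifiers and none of the 15 auxiliary subunits had an H3.3 region at an end. These class counts are small and stand beside 16.8% of all genes. The median of the widest region per gene was 518 bp (95% interval 225 to 1128 bp, n = 14), beside 487 bp over the 3470 genes with H3.3. No end of another protein-coding gene lay within 1 kb of any of these 16 regions. Ends of genes that are not protein-coding did, Gm46538 at the Kcnh3 region and Gm27217 at the Kcnh8 region. How often H3.3 regions at ends are shared over all genes was not counted, and which gene a region belongs to was not tested.

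**Figure D2:**
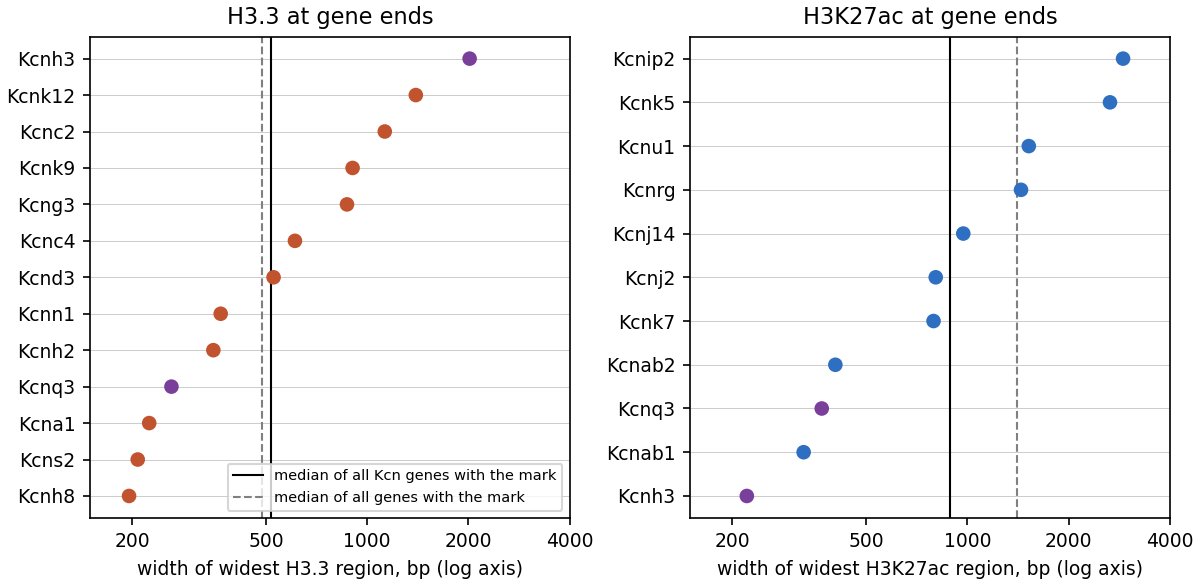
Width of the widest H3.3 region (left, 13 of the 14 genes) and H3K27ac region (right, 11 of the 12 genes) at a gene end, in bp on log axes, one point per gene; purple marks Kcnh3 and Kcnq3, which have both marks. H3.3 widths run from 196 to 2016 bp and H3K27ac widths from 221 to 2901 bp, with the median of the Kcn genes with the mark solid and of all genes with it dashed.

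H3K27ac at gene ends was found in every class but the silent modifiers, with 0 of 10 at ends and 0 of 10 in bodies. The shares were 13.0% and 27.2% of the 92 Kcn genes, and 40.6% and 38.5% of all genes. These class counts are small, and whether this class differs from the others was not tested. Of the 12 genes with the mark at an end, 8 had less than the median width of acetylated genes. Kcnip2 had the widest, 2901 bp on chromosome 19 from 45817059 to 45819959, lying 996 bp upstream of its listed start. Kcnk5 followed with 4 regions at its ends of 750 to 2653 bp. Kcnu1, a channel gene of sperm, had 1522 bp, and Kcnrg, which encodes a cytoplasmic regulator and no pore, had 1443 bp over its start. Of the inward rectifiers, Kcnj14 had 972 bp and Kcnj2, the main rectifier of heart and skeletal muscle, had 805 bp lying 324 bp upstream of its start. Kcnk7 had 793 and 752 bp. The auxiliary genes Kcnab2 and Kcnab1, which encode cytoplasmic beta subunits, had 405 and 326 bp, and Kcnq3 (369 bp) and Kcnh3 (221 bp) came last. The median was 888.5 bp (95% interval 369 to 1522 bp, n = 12), beside 1400 bp over the 8383 genes with the mark.

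Several of these acetylated ends were also ends of other genes. An end of another protein-coding gene lay within 1 kb of 6 of the 19 H3K27ac regions at Kcn gene ends. These neighbours included Armh3 at Kcnip2, Ash2l, a subunit of H3K4 methyltransferase complexes, at Kcnu1, Grwd1 at Kcnj14, Ssr3 at the 3′ end of Kcnab1 and Ehbp1l1 at the 3′ end of Kcnk7. Leaving such regions out, 8 genes kept an H3K27ac region at an end, and 6 rather than 10 had H3K27ac alone. The shares of all genes with such regions left out were not computed. The 8 and 6 are therefore not to be set against the 40.6% and 29.3% given above. Which gene such a region belongs to was not tested. How often acetylated ends are shared over all genes was not counted, so 6 of 19 has no value beside it.

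Where both marks were at the same gene end, they shared a position. At Kcnh3 the H3K27ac region of 221 bp lay within the wide H3.3 region, from 99225274 to 99225494. At Kcnq3 the H3.3 region and an H3K27ac region of 218 bp ended at the same base, 66286051 on chromosome 15. Inside the longest of the genes, Kcnip4, which encodes a Kcnd partner, H3.3 (253 bp) and H3K27ac (262 bp) covered nearly the same sequence. These were the only contacts: 3 of the 28 H3.3 regions at these genes touched H3K27ac (10.7%, 2.27 to 28.2%), against 46.7% of the 4382 H3.3 regions at the ends or in the bodies of all autosomal protein-coding genes. At gene ends alone the counts were 2 of 16 (12.5%, 1.55 to 38.3%) against 48.7%. A pair of further H3.3 regions came close, as those within Kcnk3, an acid-sensitive leak channel gene, and Kcnn2, a calcium-activated one, lay 15 and 16 bp from an H3K27ac region.

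Inside gene bodies H3.3 regions occurred at 11 genes (12.0%, 6.12 to 20.4%), against 5.41% of all genes. The median width of these 12 regions was 411.5 bp, beside 452.5 bp over all H3.3 regions at any place. Kcn genes are long, with a median length of 34.5 kb against 17.5 kb over all genes. Per length, they held 0.113 H3.3 regions for each 100 kb of gene, beside 0.150 over all genes. The widest were 840 bp in Kcnip3, 836 bp in Kcnq1 and 717 bp in Kcna1, and the narrowest was 228 bp in Kcnj9, a rectifier opened by G proteins. Some lay near a start. The region in Kcnip3 ended 15 bp before an internal listed start, that of Kcns3 (596 bp) lay 418 bp past one, and those of Kcnk13 (370 and 333 bp) lay 574 and 1464 bp past one. Further body regions were at Kcnk3 (453 bp), Kcnn2 (293 bp) and Kcnip4 (253 bp). Of the 11 genes, 2 had H3.3 at an end as well, Kcna1 among them, and 9 had it in the body alone.

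H3K27ac inside bodies was sparse. It was found in 25 genes (27.2%, 18.4 to 37.4%), against 38.5% of all genes, with 51 regions in 10.7 Mb of gene. That is 0.478 regions for each 100 kb, beside 3.77 over all autosomal protein-coding genes of any length, and the regions covered 0.588% of gene length beside 4.77%. A single region was all that 14 of the 25 genes had. Of these 25 genes, 5 had H3.3 at an end and 10 had no other region of either mark. The same counts were not made over all genes with H3K27ac in the body, so these have no value beside them.

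Kcnk5 carried 8 body regions with 26.3 kb of H3K27ac, which is 63.1% of the gene and 42.0% of all body H3K27ac of the 92 genes. The widest, 9772 bp on chromosome 14 from 20147491 to 20157262, was exceeded by 0.684% of H3K27ac regions, and 1.58% of all genes held as much H3K27ac in their body. Its listed start lay between regions, 237 bp from the one upstream and 606 bp from the one downstream. No H3.3 region lay within 165.9 kb of either end, and the neighbouring leak channel gene Kcnk16, 79.6 kb away, had neither mark. Without Kcnk5 the other genes held 43 regions, 0.405 for each 100 kb and 0.342% of gene length.

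The next genes held far less. Kcnq1, a channel of heart and epithelia, had 4 regions with 8.12 kb, of which 6525 bp were in 1 region on chromosome 7 from 143118493 to 143125017. Another of its regions, of 543 bp, lay at the end of Kcnq1ot1, the imprinted non-coding gene inside Kcnq1. Kcnt2, a sodium-activated channel gene, had 6 regions with 8.02 kb, all 163.2 kb or more from its listed start and none at its ends. Kcnk1 had 3 regions with 3.48 kb, the nearest 1016 bp past its start, and Kcnab1 had 2 with 3.11 kb, centred 3.4 and 6.5 kb from its 3′ end. Kcnk3 had 4 short regions with 1.85 kb, centred 7.6 to 14.0 kb from its nearer end. Kcnh8 (1.61 kb), Kcnh3 (1.43 kb), Kcnn3 (1.08 kb) and Kcnh1 (0.953 kb) completed the 10 with the most. The longest genes were nearly empty. Kcnip4 (1135.6 kb), Kcnma1, the large-conductance calcium-activated channel gene (712.8 kb), and Kcnq5 (564.3 kb) had 1 H3K27ac region each, and Kcnd2 (514.5 kb) and Kcnh7 (490.9 kb) had no region.

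**Figure D3:**
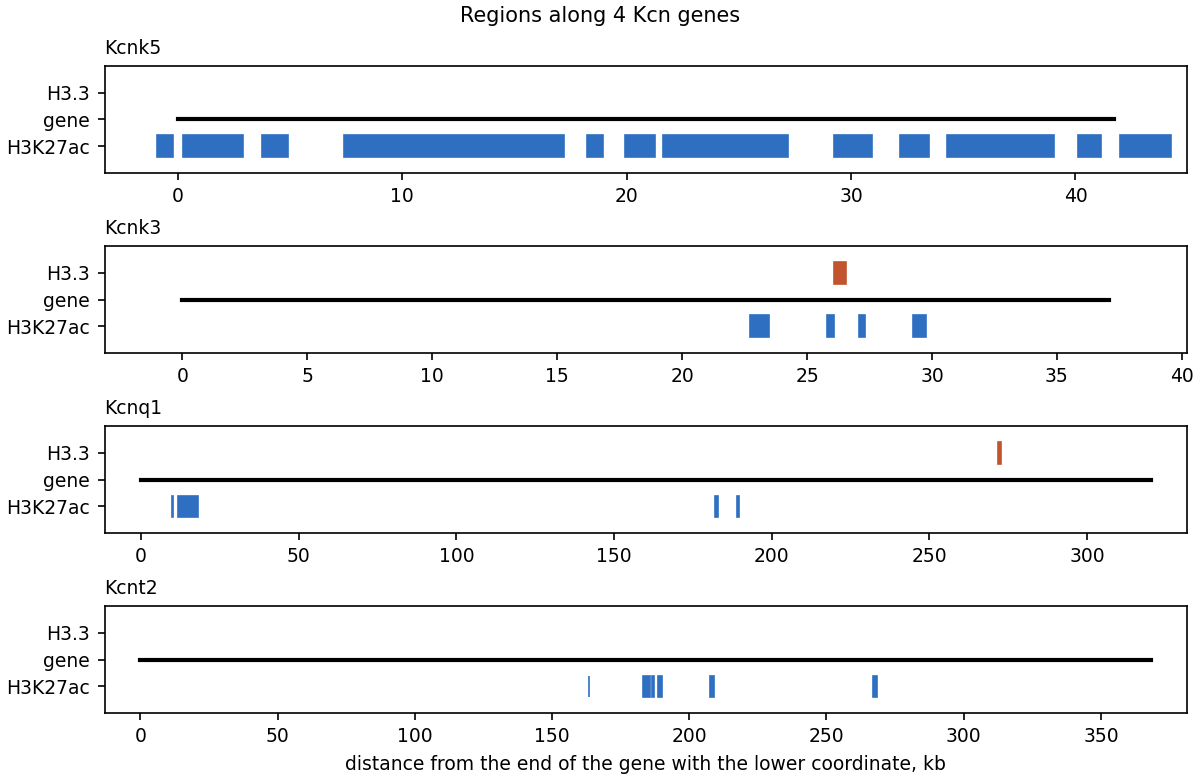
H3.3 regions (upper row) and H3K27ac regions (lower row) along Kcnk5, Kcnk3, Kcnq1 and Kcnt2, drawn to scale in kb from the gene's lower-coordinate end, with the gene as a black line. H3K27ac fills 63.1% of Kcnk5 in its body regions, and separate regions, up to 6525 bp in Kcnq1, lie in the other 3 genes.

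Shares were also compared among genes of like length. For H3K27ac at an end, 3 of 20 Kcn genes under 10 kb (15.0%) compared with 30.8% of all genes of that length. The shares were 4 of 22 (18.2%) against 50.1% between 10 and 30 kb, 3 of 27 (11.1%) against 47.8% between 30 and 100 kb, and 0 of 9 against 35.4% between 100 and 300 kb. In the longest group, 300 kb and over, 2 of 14 (14.3%) compared with 16.1%. Inside bodies, H3K27ac was in 0 of 20, 3 of 22 (13.6%), 7 of 27 (25.9%), 5 of 9 (55.6%) and 10 of 14 (71.4%), against 8.58%, 46.0%, 61.2%, 65.4% and 66.0%. The exact interval of the Kcn share lay below the share of all genes for ends between 10 and 300 kb and for bodies between 10 and 100 kb. The densities of H3K27ac body regions for each 100 kb of gene, from the shortest group to the longest, were 0, 0.995, 1.44, 0.259 and 0.311 for Kcn genes and 2.56, 6.44, 6.39, 3.54 and 0.841 for all genes. H3.3 inside bodies was in 2 of 20 (10.0%), 1 of 22 (4.55%), 5 of 27 (18.5%), 0 of 9 and 3 of 14 (21.4%), against 2.17%, 5.17%, 7.25%, 11.6% and 15.6%. The Kcn share was the higher one under 10 kb, from 30 to 100 kb and from 300 kb, and the exact interval held the share of all genes in each of the 5 groups. H3.3 at ends lay between 10.0% and 22.2% in every group, beside 15.0% to 17.7%.

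**Figure D4:**
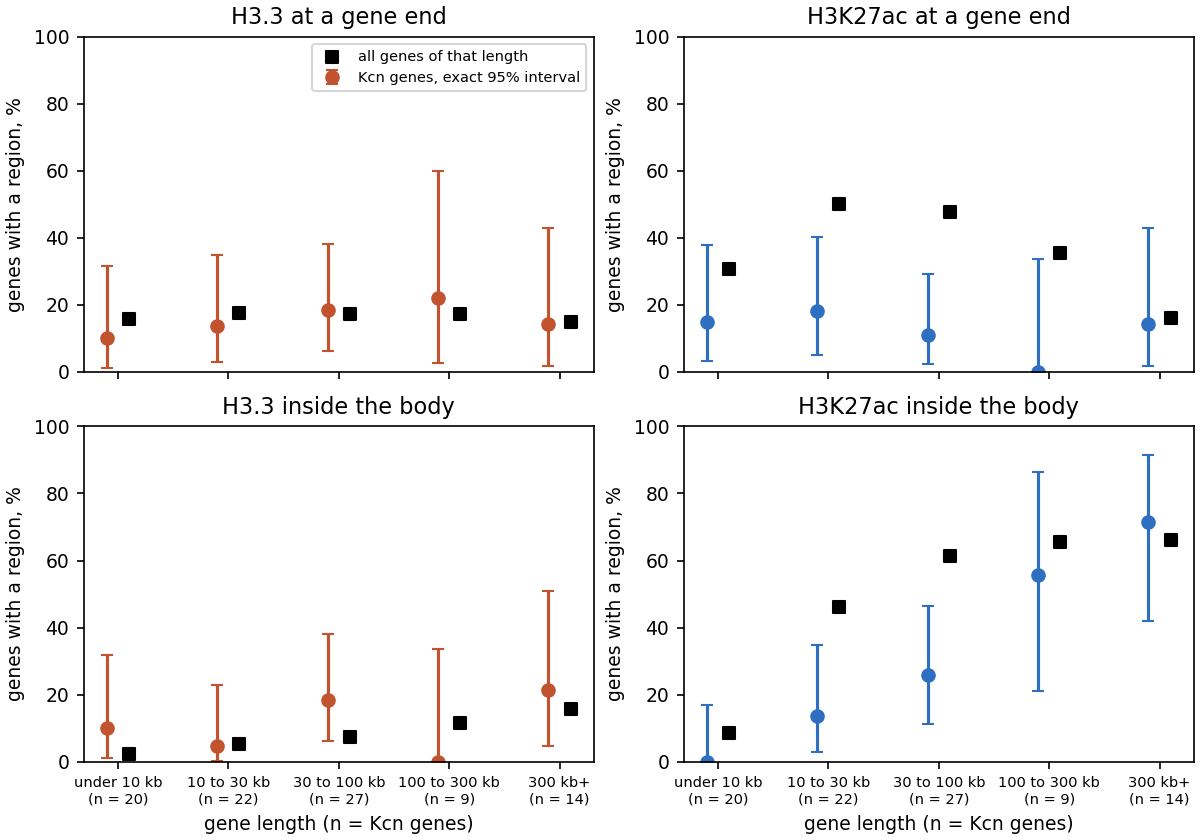
Share of genes with a region (vertical axis, %) by gene length, for Kcn genes (circles, exact 95% interval) and all autosomal protein-coding genes of that length (squares). Circles for H3K27ac lie below the squares up to 300 kb, at ends and in bodies, and circles and squares are close for H3.3 at ends.

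Base composition was compared at transcription starts, which the RefSeq promoter table lists for 68 of the 92 genes. Over 300 bases (250 before the outermost start and 50 after), 21 of the 68 were CpG-rich (30.9%, 20.2 to 43.3%), meaning a CpG observed-to-expected ratio of at least 0.6 and at least 55% GC. Over all autosomal protein-coding genes in the table the share was 42.7%. Among CpG-rich starts, 2 of 21 Kcn genes had H3K27ac within 1 kb (9.52%, 1.17 to 30.4%), Kcnk5 and Kcnab2, against 55.6% of all CpG-rich starts. H3.3 was within 1 kb of 4 (19.0%, 5.45 to 41.9%), Kcnd3, Kcng3, Kcnh8 and Kcnk12, against 27.5%. The other 15 CpG-rich starts had neither. They include Kcnc1 (41 CpG in the 300 bases), Kcnj4 (41), Kcna3 (37), Kcna2 (31) and Kcnmb4 (48). Of the 47 starts that were not CpG-rich, 4 had each mark (8.51%), against 22.4% of such starts for H3K27ac and 8.59% for H3.3. Inner listed starts were left out, so these counts depend on the start taken. CpG-rich inner starts were listed for Kcns3 (32 CpG) and Kcnip3 (28 CpG), both with H3.3 within 1 kb. Kcnk2 and Kcnq5 also had such inner starts, with neither mark.

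Short motifs were searched on both strands of the same 300 bases. The GC box GGGCGG was in 35 of the 68 (51.5%) beside 47.3% of all listed starts, and the TATA box core TATAAA in 3 (4.41%) beside 13.5%. CCAAT was in 21 (30.9%) beside 39.1%. CAGCACC and GGACAG, letters contained in the 2 parts of the REST binding element, were in 8 (11.8%) and 20 (29.4%), beside 7.24% and 22.5%. None of these motifs contains another, and a match describes the sequence and not binding.

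**Figure D5:**
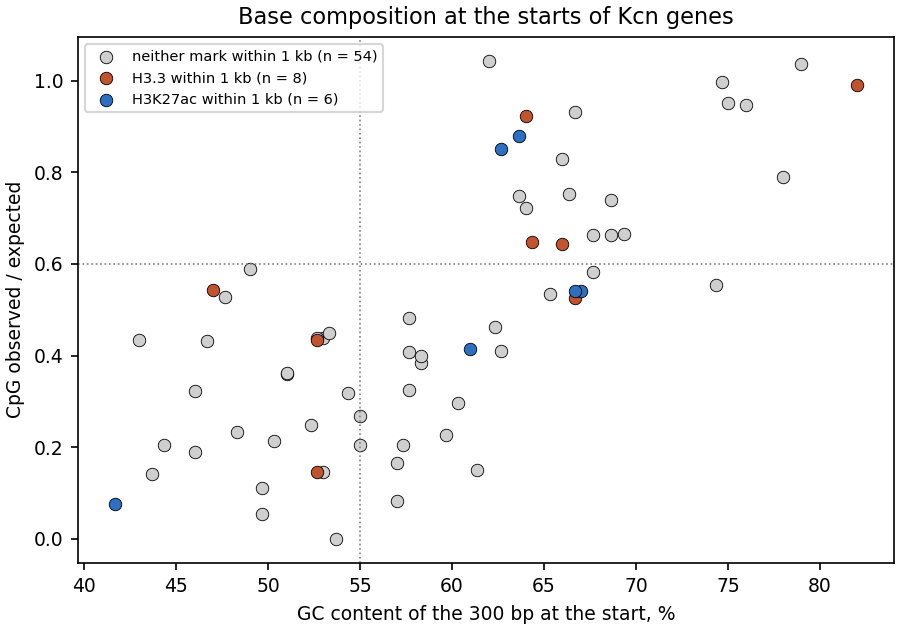
CpG observed-to-expected ratio against GC content (%) of the 300 bases at the outermost listed start of 68 Kcn genes, coloured by the mark within 1 kb; dotted lines are 55% GC and a ratio of 0.6. Of the 21 starts in the upper right field, 4 have H3.3, 2 have H3K27ac and 15 have neither.

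The 50 genes without any region came from every class but the single regulator Kcnrg. The voltage-gated ones included Kcna2, Kcna3, Kcna4, Kcna5, Kcna6, Kcna7, Kcna10, Kcnb2, Kcnc1, Kcnd2, Kcnh4, Kcnh5, Kcnh6 and Kcnh7. Unmarked silent modifiers were Kcnf1, Kcng1, Kcng2, Kcng4, Kcns1, Kcnv1 and Kcnv2, and unmarked inward rectifiers were Kcnj1, Kcnj4, Kcnj5, Kcnj8, Kcnj10, Kcnj11, Kcnj13, Kcnj15 and Kcnj16. Kcnj8 and Kcnj11 encode the pores of channels closed by ATP. Among leak channels Kcnk2, Kcnk4, Kcnk6, Kcnk10, Kcnk15, Kcnk16 and Kcnk18 were unmarked, and among calcium- or sodium-activated genes Kcnn4 and Kcnt1. Of the auxiliary genes, all 4 of the Kcne group (Kcne1 to Kcne4) were unmarked, with Kcnab3, Kcnip1, Kcnmb1, Kcnmb3 and Kcnmb4. The remaining body-only genes with a single H3K27ac region were Kcnj3, Kcnj6, Kcnj12 and Kcnmb2.

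Distances to acetylated chromatin were measured for all 92 genes, marked ones included. The median distance from the nearer gene end to an H3K27ac region was 16.8 kb (95% interval 9.75 to 26.4 kb) for the 92 genes and 4.11 kb for all genes. Kcnv1 was farthest, at 461.3 kb, followed by Kcnj15 (325.4 kb) and Kcna4 (315.9 kb). Other genes without any region lay close to H3K27ac, such as Kcnh4 (1.1 kb), Kcnj10 (1.4 kb) and Kcnab3 (1.8 kb). No median was computed for the unmarked genes alone. For H3.3 the medians were 92.2 kb (51.2 to 173 kb) and 78.3 kb. The Shaker cluster of Kcna3, Kcna2 and Kcna10 on chromosome 3 had no H3K27ac region within 83.8 kb of an end and no H3.3 region within 137.6 kb. Of the 9 pairs of neighbouring Kcn genes closer than 100 kb, 3 had a gene with a mark at an end (Kcnj2, Kcnk5 and Kcna1), and none had it at both genes. No region touched more than 1 Kcn gene.

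Other ion channel families were counted in the same way. At gene ends, of 73 genes with symbols of sodium (Scn), calcium (Cacn), HCN, chloride (Clcn) and TRP channels, 13 had H3K27ac (17.8%, beside 40.6% of all genes), 9 had H3.3 (12.3%, beside 16.8%) and 56 had neither (76.7%, beside 53.9%). In bodies 29 of the 73 had H3K27ac (39.7%, beside 38.5% of all genes and 27.2% of Kcn genes), with calcium channels at 14 of 25 (56.0%). Genes were taken by symbol alone, so the TRP list and these 29 include Trpc4ap, which is not itself a channel gene. Chloride channels, several of which serve endosomes and lysosomes, had H3K27ac at an end in 5 of 8 (62.5%) and sodium channels in 1 of 14 (7.14%). Among 9 partners of potassium channels without a Kcn symbol, such as Dpp6 and Abcc8, none had H3K27ac at an end, and Lrrc26, a partner of Kcnma1, had 1840 bp of H3.3. Of 12 genes that pump or co-transport potassium, 6 had H3K27ac at an end, among them the sodium pump gene Atp1b1 (1511 bp) and the cotransporter gene Slc12a4 (2985 bp). REST and genes for proteins that act with it had H3K27ac at an end in 7 of 8 (beside 40.6% of all genes), with 12565 bp at Rest itself. Whether REST acts at the Kcn genes in these cells was not tested.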

How the data were processed

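For H3K27ac and H3K122ac in E14 nuclei the CUT&RUN nuclease was fused to protein A, for H3.3 to protein A/G, and digestions for H3.3 and H3K122ac were stopped at low salt, per the labels' protocols. The sizes of both lists were therefore not compared. The deposited values are region starts and ends (build mm10). Bowtie2, SAMtools, deepTools and MACS2 are named in the submitters' processing notes, without roles. How libraries were combined into a consensus, and with which threshold, is not given in the sources used here. H3K122ac, the controls without antibody and genotype differences were not analysed here.

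Starts were raised by 1 to be 1-based. Gene positions came from the RefSeq table of GRCm38.p6, whose primary chromosomes share mm10 coordinates. Overlaps, shares, exact intervals and intervals of medians (from order statistics) were computed with Python 3.11.15, pandas 2.3.3 and scipy 1.17.1, and the overlap code was tested on simulated data (0 of 2000 results differed from a direct count). Columns of other samples numbered 0. The members, classes and lists were chosen with earlier results of these data known. Some genes are counted but not reported by name here. Full values were given for the 10 with the widest region of each mark at an end, those with both marks, those with H3.3 in the body, the 10 with the most body H3K27ac and the 5 longest. One neuronal marker is X-linked and was not counted. Alternatives covered the window, the overlap rule, the width of regions, neighbouring members, listed starts and shared regions.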

Additional observations from a re-analysis of the deposited data

How the results depend on the processing

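Of 73 alternative values for 11 results, 60 stayed within 1.5 times the reported count or within the interval of the reported median, and 13 did not. With the wider 50% of each list, H3.3 was at an end of 8 genes, H3K27ac at 6, both at 0 and H3K27ac without H3.3 at 6. In bodies this setting left H3.3 in 6 genes and H3K27ac in 9, with 20 regions. The shares of all genes were then 8.89% and 29.1% at ends and 2.77% and 26.3% in bodies. With a window of 2.5 kb, H3K27ac was at an end of 21 genes (22.8%, beside 46.1% of all genes) and both marks at 6, and with 500 bp both marks were at 0. For these alternative settings the shares of all genes with both marks, or with H3K27ac and no H3.3, were not computed. Just inside 1 kb lay Kcnc4 for H3.3 (1.0 kb) and Kcnh3 for H3K27ac (0.8 kb), and just outside it Kcns3 (1.2 kb) and Kcnh4 (1.1 kb). Of the alternatives chosen after seeing the data, counting starts alone gave 9 of 68 genes with H3.3 and 6 with H3K27ac. At outermost starts H3.3 was at 8 (11.8%) and H3K27ac at 6 (8.82%), beside 16.7% and 36.6% of all genes with a listed start. Leaving out regions at other genes' ends gave 6 genes with H3K27ac and no H3.3, without a share of all genes. Keeping 1 of any members closer than 1 Mb left 75 genes, with H3.3 at 12 and H3K27ac at 11, and this was not repeated over all genes. No paired analysis was possible because the deposited lists carry no value per library. Depth is unknown, so a missing region does not show that a mark is absent.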

Other observations

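Kcn genes outside the 92 were also measured. The X-linked channel gene Kcnd1 and the X-linked auxiliary gene Kcne1l had no region of either mark. Of the non-coding genes, Kcnd3os, which lies across the start of Kcnd3, held both H3.3 regions of Kcnd3 in its body, Kcnq1ot1 had H3K27ac of 543 bp at an end and another region in its body, and Kcnmb4os1 and Kcnmb4os2 had none.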
